A study of Mus musculus with 8 samples.

Results

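The control group of a mouse retina series was described across genes. It holds 4 of the 8 arrays of the series, chosen by the sample labels alone as the arrays of control retina 1 to 4. Each array had been hybridised with total RNA from mouse retina labelled as fresh, which is read here as time 0 d, with no agent named. The other 4 arrays, of injected retina, enter no comparison here. The labels used here name no strain, genotype, age or sex, and nothing in them says whether the 4 retinas came from separate animals. The spread between arrays therefore measures these samples only and may in part be technical. The description covers the order of retinal cell-type and pathway genes by mean signal and the genes that differed most between the 4 arrays.

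The retina turns light into nerve signals in layers. In rods and cones a light-activated opsin switches on the G protein transducin, which activates a phosphodiesterase, lowers cyclic GMP and closes cation channels. Photoreceptors signal through ribbon synapses to bipolar cells, horizontal and amacrine cells shape the signal, and ganglion cells send it to the brain. Müller glia span the tissue and support its neurons. The pigment epithelium, choroid, ciliary body and lens adjoin the retina and are parted from it when it is taken out.

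A value here is the signal of 1 probe set per gene, log2(intensity + 16) after quantile normalisation over the 4 control arrays, with the mean and the SD over n = 4 arrays. Of 18193 genes with a named probe set, 12821 had a mean at or above a floor of 8.43, which is 329 intensity units. The median gene lay close to 10. Signal depends on the probes as well as on the amount of transcript: in 5644 genes with several probe sets past the floor, the brightest and dimmest differed by a median of 2.25 log2 units, against a median SD between arrays of 0.23. The order given here is thus an order of probe-set signal, and it is less well resolved as an order of transcripts. Genes next to each other in the order often overlapped between arrays. In the gene lists used below, 19 of 26 neighbouring pairs of rod genes, 20 of 26 of Müller glia genes and 4 of 12 of cone genes did. In whole tissue, fewer cells of a type and less RNA per cell cannot be told apart.

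Control replicate 2 stood apart from the other arrays in X- and Y-linked genes. Eif2s3y, a Y-linked gene, had signals of 13.96, 5.57, 13.64 and 14.10 in replicates 1 to 4, and Xist, the X-inactivation transcript, had 8.98, 13.86, 9.92 and 9.72. Replicate 2 was the lowest array for Eif2s3y and the highest for Xist, and all 3 probe sets of Xist had their highest value there. The labels give no sex, and results that rest on replicate 2 are given with and without it. Correlation between arrays over all probe sets ran from 0.915, between replicates 2 and 3, to 0.938. Median intensity as deposited ran from 495 to 584, and the ratio of the 3′ to the 5′ control probe set of Actb was 39.2, 39.5, 52.2 and 57.2 in replicates 1 to 4. The hybridisation control bioB was brightest on replicate 2, at 5481 intensity units as deposited against 3229 to 3871. With 4 arrays, precision is limited throughout.

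The markers of the retinal cell types were brighter and steadier than the marker of the pigment epithelium. Of these retinal markers Thy1 varied most, with an SD of 0.32 against a median of 0.23 over genes past the floor. The rod arrestin Sag had signals of 16.20, 16.25, 16.33 and 16.09 in replicates 1 to 4, a mean of 16.22 ± 0.10. Glul, the glutamine synthetase of Müller glia, followed with 16.13, 16.01, 15.96 and 15.96. Gad1, which makes GABA in amacrine cells, had 15.64, 15.42, 15.37 and 15.49. None of these 3 genes differed by more than 0.3 log2 units between any pair of arrays. Prkca, the protein kinase of rod bipolar cells, was at 15.51, 15.18, 15.61 and 15.31, and the retinaldehyde-binding protein Rlbp1 of Müller glia was at 14.10, 14.07, 14.21 and 14.19. Thy1, a surface protein of ganglion cells, had 13.76, 13.86, 13.28 and 13.24, and the short-wavelength cone opsin Opn1sw had 12.79, 12.66, 12.98 and 12.73. Thy1 was higher in replicates 1 and 2 than in replicates 3 and 4, whereas Opn1sw had no such split. Rpe65, which remakes visual chromophore in the pigment epithelium, had 10.83, 12.56, 10.44 and 10.35, highest in replicate 2. All 8 markers lay above the floor on every array. Second probe sets of 4 of these genes were dimmer, at 11.34 for Opn1sw, 11.21 for Glul, 9.58 for Gad1 and 11.59 for Prkca.

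**Figure D1:**
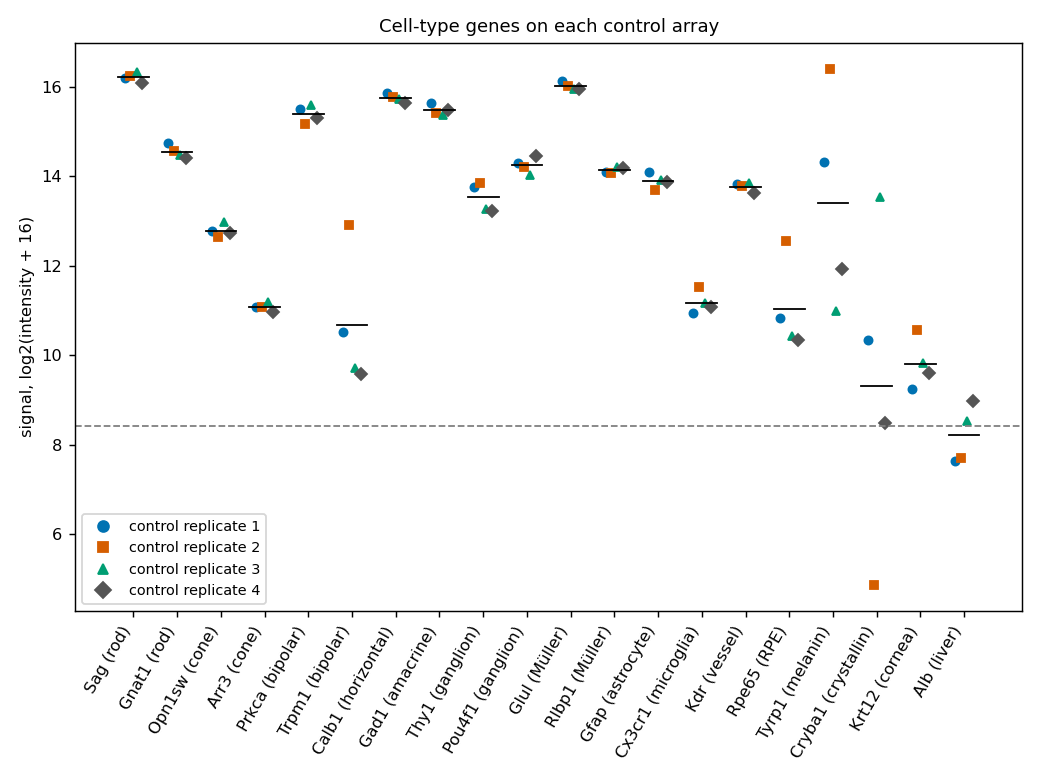
Signal, log2(intensity + 16), of 20 cell-type genes on each of the 4 control arrays, with a bar at the mean and a dashed line at the floor of 8.43; RPE is the pigment epithelium. The 4 points of Sag, Glul and Rlbp1 nearly coincide, while Trpm1, Rpe65 and Tyrp1 were highest in replicate 2 and Cryba1 was lowest there.

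Lists of 864 genes in 47 groups were placed in order by the median signal of their measured members, of which there were 778. The respiratory chain and ATP synthase list came first at 15.34, at the 97.2 percentile of all genes, followed by cytosolic chaperones (15.25), housekeeping genes (15.11), ribosomal proteins (14.62) and glycolysis (14.52). Rod phototransduction, at close to 14, and Müller glia (13.77) were the highest lists of single cell types. On single arrays rod genes ranked from place 6 to 8 and Müller glia genes from 6 to 7, so no order between them is drawn. Photoreceptor transcription factors (13.04), bipolar cells (12.36), amacrine cells (12.13), cones (12.11), horizontal cells (11.65) and ganglion cells (10.78) had lower medians. At the bottom lay some of the lists for tissues that are not part of the retina. These were lens genes other than crystallins (7.59), skeletal muscle (7.43), lymphocytes and granulocytes (7.19) and erythrocytes (7.04). Other such lists lay higher: pigment epithelium had a median of 11.38, above that of ganglion cells. A list of germline and liver genes lay at 7.62, and 74 olfactory and other chemosensory receptor genes had a median of 7.20, with 15 past the floor. These last medians give a typical level of genes of other organs on these arrays. Single members reached higher, such as Cela1 (10.25), Ins2 (9.40) and Prm1 (9.36). Genes past the floor by little are thus no brighter than some genes of other organs.

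**Figure D2:**
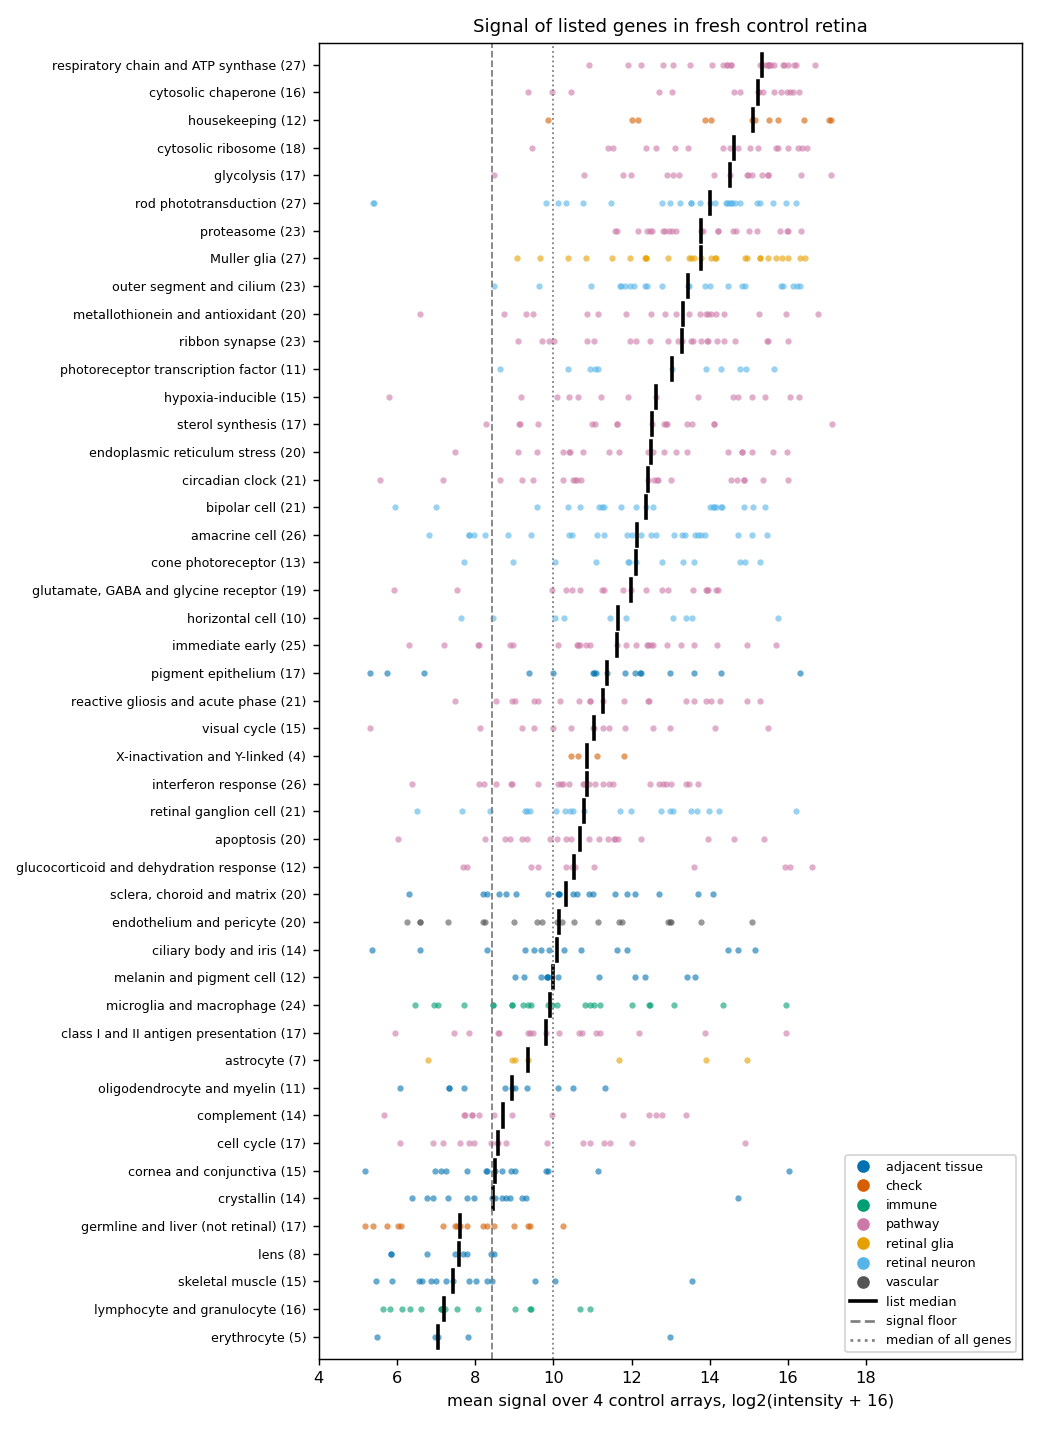
Mean signal over the 4 control arrays, log2(intensity + 16), of every measured member of the 47 lists, with the number measured in parentheses, a bar at each list's median, a dashed line at the floor of 8.43 and a dotted line at the median of all genes, close to 10. Energy, chaperone and ribosome lists lie highest, rod and Müller glia lists highest among cell types, and lens, muscle and blood lists below the floor, each with members spread over several log2 units.

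The order of lists was also taken on each array by itself: 8 of 47 kept their rank within 1 place, and 12 moved by more than 5 places. The list of melanin and pigment cell genes ranked between place 12 and place 36. Pigment epithelium ranked between 14 and 26 and sclera, choroid and matrix between 25 and 34, against 25 to 31 for ganglion cells. Bipolar, amacrine and cone medians lay within 0.25 log2 units of each other, and no order among these 3 is drawn.

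None of the 25 brightest genes was a member of a cell-type list. Hmgn1, a nucleosome-binding protein, led with signals of 17.12, 17.04, 17.18 and 17.34, then came the lysosomal membrane protein Laptm4b at 17.15 ± 0.07 and Hmgcs1, an early enzyme of sterol synthesis, at 17.12 ± 0.06. The glycolytic enzyme Pgk1 was at 17.10 ± 0.02, the tubulin Tuba1a at 17.06 ± 0.11 and Uqcrb, a subunit of respiratory complex III, at 17.05 ± 0.11. Among the 25 brightest were also the superoxide dismutase Sod1 and the mitochondrial phosphate carrier Slc25a3. Genes known for neurons were among them too, such as the chloride transporter Slc12a5 at 16.84 ± 0.06 and Ndrg4 at 16.70 ± 0.06. Clu of Müller glia, at 16.44 ± 0.28, and Sag of rods came below these 25. The probe sets of Hmgn1, Laptm4b, Pgk1, Tuba1a and Clu (x_at) and of Sod1 and Ndrg4 (s_at) may also detect similar transcripts.

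Rod genes covered the whole signal range. Of 30 listed genes 27 were measured and 25 passed the floor. A 2-fold range between arrays, which is highest minus lowest of at least 1 log2 unit, was reached by 0 of these 25. Over all genes past the floor 16.8% reached it. That share is lower in brighter genes, at 4.30% for means from 12 to 14 and 0.847% at 14 or above. Sag led, followed by phosducin Pdc, which binds the transducin beta and gamma subunits, at 15.84, 15.87, 16.08 and 16.01, and by Gngt1, the rod transducin gamma subunit, at 15.77, 15.64, 15.58 and 15.48. The rod transducin alpha subunit Gnat1 had 14.76, 14.57, 14.48 and 14.40, and Gnb1, the beta subunit, was at 15.22 ± 0.16. All 3 transducin subunits of rods were steady across arrays. Of the phosphodiesterase subunits, the catalytic Pde6b and Pde6a were at 14.56 ± 0.12 and 14.13 ± 0.12, and the inhibitory Pde6g was at 13.53 ± 0.17. The channel subunit Cnga1 was at 14.65 ± 0.12 and its partner Cngb1 was at 10.75 ± 0.04.

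Among genes that shut off or recover the rod response, the cyclase activators Guca1b and Guca1a were at 15.28 ± 0.10 and 13.998 ± 0.48, recoverin Rcvrn at 13.74 ± 0.21, the GTPase-activating protein Rgs9 at 10.12 ± 0.19 with its anchor Rgs9bp at 14.41 ± 0.26, and rhodopsin kinase Grk1 at 9.82 ± 0.30. Guca1a had the largest SD of the list and was at 14.41, 14.41, 13.66 and 13.51, higher in replicates 1 and 2 than in replicates 3 and 4. The disc rim protein Prph2, at 5.78, 4.88, 5.62 and 5.33, and the photoreceptor guanylate cyclase Gucy2e, at 5.37, 5.23, 5.60 and 5.34, lay below the floor on all 4 arrays. Each of these 2 genes was read from 1 probe set, and both are known as photoreceptor genes. The cause of their low signal was not tested. Of 26 pairs of neighbours in the rod order, 19 overlapped between arrays.

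Promoters of rod genes are shown because a shared short sequence was found in many of them. The motif TAATCC, the core bound by OTX-type homeodomain proteins such as Crx and Otx2, was searched on both strands of the 250 bases before each gene's start, in RefSeq sequence of GRCm38.p6. Of 30 rod genes 21 had an entry and 11 of these (52.4%) held the motif, as did 2 of 10 cone genes, 5 of 16 pigment epithelium genes, 2 of 8 pigment cell genes and 7.21% of 27025 genes with an entry. A match is a description of the letters and not evidence of binding. The promoters of the brightest rod genes with a match, Sag (chr1:87803430-87803679, plus strand) and Gngt1 (chr6:3993758-3994007, plus strand), are printed 5′ to 3′ with the motif in capitals. Both carry it on the opposite strand, where it reads GGATTA, starting 87 and 44 bases before the gene start.
Sag: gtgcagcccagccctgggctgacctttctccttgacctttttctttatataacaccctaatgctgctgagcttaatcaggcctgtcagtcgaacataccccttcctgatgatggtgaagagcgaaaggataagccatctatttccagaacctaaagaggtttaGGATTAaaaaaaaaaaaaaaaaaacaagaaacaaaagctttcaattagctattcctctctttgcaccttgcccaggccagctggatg
Gngt1: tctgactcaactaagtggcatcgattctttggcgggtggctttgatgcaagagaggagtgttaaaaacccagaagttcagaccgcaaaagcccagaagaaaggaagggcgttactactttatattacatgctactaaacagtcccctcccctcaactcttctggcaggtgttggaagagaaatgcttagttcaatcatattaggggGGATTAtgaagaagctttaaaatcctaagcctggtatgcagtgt

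The transcription factors known to act at such genes were mostly well above the floor. Neurod1 was at 15.64 ± 0.09, Rorb at 14.92 ± 0.30, Nrl, which directs the rod fate, at 14.93, 14.83, 14.48 and 14.88, Otx2 at 14.30 ± 0.28 and Crx at 13.91, 14.06, 13.86 and 13.77. Crx had its 4 arrays within 0.3 log2 units. Mef2d (13.04), Esrrb (11.06) and Prdm1 (10.93) were lower, and Rax, an early eye-field factor, was the lowest of the 11 measured at 9.29, 8.95, 7.46 and 8.85. Rax was below the floor in replicate 3.

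Genes of the outer segment and its cilium had a median of 13.43. The cadherin Cdhr1 was at 16.30 ± 0.17, Arl3, a small GTPase of ciliary transport, at 16.24 ± 0.11, and Prom1, a membrane protein of the disc edge, at 16.14 ± 0.08. The ciliary proteins Rpgrip1, Rp1 and Cep290 had means of 15.81, 14.91 and 13.89. Those of the Bbs genes ran from 11.96 for Bbs2 to 14.46 for Bbs4. Tulp1 had signals of 12.63, 12.73, 11.54 and 11.37, again higher in replicates 1 and 2. Fscn2, an actin bundler of photoreceptors, was the least steady at 9.30, 9.85, 6.04 and 8.77, close to the floor.

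Cone genes were a small list, steady across arrays but for Thrb. Of 14 genes 13 were measured and 12 passed the floor, and 4 of 12 neighbouring pairs overlapped between arrays. The cone transducin alpha subunit Gnat2 led at 15.43, 15.30, 15.26 and 15.17, then the potassium channel subunit Kcne2 at 14.90, 14.87, 15.03 and 14.85 and Pde6h, the inhibitory phosphodiesterase subunit, at 14.69, 14.79, 14.87 and 14.73. These 3 genes were steady across arrays, and signals of different probe sets are no measure of cone against rod transcript. The catalytic Pde6c was at 13.59 ± 0.17 and the beta subunit Gnb3 at 13.33 ± 0.12. The opsins Opn1sw, at 12.79 ± 0.14, and Opn1mw, at 12.02, 11.80, 12.06 and 11.88, came next, and cone arrestin Arr3 was at 11.08, 11.09, 11.20 and 10.97. Neither opsin nor Arr3 had an array apart from the rest. Thrb, a thyroid hormone receptor of cone development, had 9.23, 10.05, 10.50 and 10.37. It was the 1 cone gene with a 2-fold range (8.3% of 12), against 16.8% of all genes past the floor, a share that is lower in brighter genes. Gngt2, the cone gamma subunit, was at 8.97 ± 0.19, and the retinoid receptor Rxrg was below the floor at 7.70.

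Bipolar cell genes were led by Prkca, the tachykinin receptor Tacr3 at 15.10 ± 0.14 and Car8 at 14.89 ± 0.07. The transcription factor Isl1 (14.32), the G protein signalling genes Rgs7 (14.16) and Gng13 (14.09) and the calcium-binding proteins Scgn (14.11) and Cabp5 (14.02) lay within 0.3 log2 units of each other. Of the ON pathway, the proteoglycan Nyx was at 12.43, 12.63, 12.73 and 12.41, Rgs11 at 10.37 ± 0.39 and the receptor Gpr179 at 9.59 ± 0.20. Trpm1, the cation channel of ON bipolar cells, had signals of 10.53, 12.91, 9.72 and 9.58 and was highest in replicate 2, where its other 3 probe sets were highest too. Trpm1 is also known as a gene of melanocytes. It and Pcp2, a regulator of G protein signalling, at 12.90, 12.93, 11.71 and 11.90, had a 2-fold range. These were the 2 of 19 bipolar genes past the floor that did, against 16.8% of all genes past the floor, a share that is lower in brighter genes.

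Horizontal and amacrine cell lists spanned bright and dim genes. Calb1, a calcium-binding protein of horizontal cells, was at 15.87, 15.78, 15.74 and 15.64, the transcription factors Prox1 and Lhx1 were at 11.86 ± 0.33 and 10.04 ± 0.42, and Onecut1 was at 8.997, 6.34, 8.88 and 9.62, below the floor in replicate 2 only. Of amacrine genes, Gad1 was followed by the transcription factors Meis2 at 15.07 ± 0.11 and Pax6 at 14.73 ± 0.09. The neuropeptides Tac1 and Vip were at 13.89 ± 0.12 and 13.70 ± 0.11, the vesicular GABA transporter Slc32a1 at 12.49 ± 0.58, and the glycine transporter Slc6a9 at 11.11 ± 0.32. Chat, of cholinergic cells, was at 8.83 ± 0.44, and tyrosine hydroxylase Th, of dopaminergic cells, was at 8.78, 8.65, 7.30 and 7.19. Penk, the enkephalin precursor, had 12.41, 13.28, 11.02 and 11.38, highest in replicate 2.

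Ganglion cell genes had the lowest median among retinal neurons, with a wide span. The neurofilaments Nefl, Nefh and Nefm were at 16.21 ± 0.04, 13.67 ± 0.17 and 13.07 ± 0.26, and Nefl had values of 16.21, 16.17, 16.20 and 16.27. The transcription factor Pou4f1 was at 14.29, 14.21, 14.03 and 14.45, the vesicular glutamate transporter Slc17a6 at 13.98 ± 0.17 and the nicotinic receptor subunit Chrna6 at 11.71 ± 0.10. Rbpms (10.49), Sncg (10.42) and melanopsin Opn4 (10.30) lay close together, and Tubb3 was below the floor at 7.66. None of the 18 genes past the floor had a 2-fold range, against 16.8% of all genes past the floor, a share that is lower in brighter genes.

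Müller glia genes were among the brightest of any cell type. Of 28 listed genes 27 were measured and all 27 passed the floor. Clu, a secreted chaperone, had 16.65, 16.71, 16.19 and 16.21, and the carbonic anhydrase Car2 had 16.37, 16.21, 16.34 and 16.34. Clu was higher in replicates 1 and 2, and Car2 was even across arrays. After Glul came the transporter Abca8a at 15.84 ± 0.19, Dkk3 at 15.70 ± 0.05 and the retinol dehydrogenase Rdh10 at 15.48 ± 0.13. The intermediate filament Vim was at 14.97 ± 0.21, the water channel Aqp4 at 14.89 ± 0.10, the glutamate transporter Slc1a3 at 13.51 ± 0.22 and the potassium channel Kcnj10 at 12.37 ± 0.09. Apoe, an apolipoprotein, had 12.33, 12.85, 10.95 and 11.69, and the GABA transporter Slc6a11 had 10.10, 6.53, 9.98 and 9.64. Apoe was highest and Slc6a11 lowest in replicate 2. A total of 5 of 27 genes (18.5%) had a 2-fold range, against 16.8% of all genes past the floor. Over all genes that share was 4.30% at means from 12 to 14 and 0.847% at 14 or above. The 5 were Dio2, Apoe, Id3, Hes1 and Slc6a11, all in the dimmer part of the list.

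Astrocyte genes were few, with 7 of 8 measured. The aldolase Aldoc was at 14.94 ± 0.18 and Gfap, the glial filament that astrocytes make at rest, was at 14.09, 13.70, 13.91 and 13.88. The other 2 probe sets of Gfap were at 9.73 and 9.03. S100b followed at 11.69 ± 0.48, and the connexin Gjb6 had 8.22, 11.13, 8.71 and 7.69, highest in replicate 2.

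Vessel and immune genes ran from high signal to below the floor. The endothelial glucose transporter Slc2a1 was at 15.09 ± 0.28, the receptor Kdr at 13.83, 13.79, 13.85 and 13.63, Flt1 at 12.93 ± 0.18 and the pericyte gene Rgs5 at 12.99 ± 0.24. Kdr is also known in Müller glia. The endothelial adhesion proteins Cdh5 and Pecam1 and the receptor Tie1 lay below the floor on average, at 8.26, 6.59 and 6.26. Acta2, smooth muscle actin, had 11.03, 14.08, 10.68 and 10.94, far higher in replicate 2 than elsewhere. Of 25 microglia and macrophage genes 24 were measured and 20 passed the floor: the protease Ctss was at 15.95 ± 0.10, the receptor Csf1r at 14.31, 14.89, 14.17 and 13.94, C1qb at 12.44 ± 0.33, the fractalkine receptor Cx3cr1 at 10.95, 11.53, 11.16 and 11.08, P2ry12 at 10.09 ± 0.36 and Tmem119 at 8.95 ± 0.60. Highest values lay in replicate 2 for 14 of these 20 genes (70.0%), against 30.4% of all genes past the floor, and Lyz2, lysozyme, had 10.60, 12.53, 10.23 and 10.41. Aif1 was below the floor at 6.94. The T cell genes Cd3e (7.16) and Cd3g (6.62), the B cell genes Cd79a (6.32) and Cd79b (5.83) and the neutrophil genes S100a8 (7.13) and S100a9 (5.63) were below the floor, as was the haemoglobin gene Hba-a1 (6.98). Of 16 measured lymphocyte and granulocyte genes 5 passed the floor. These were Jchain (10.93) and Ighm (10.69) of antibodies, the T cell gene Cd8a (9.39), the B cell gene Ms4a1 (9.02) and the neutrophil gene Ltf (9.42). Cd8a, Ms4a1 and Ltf lay no higher than some genes of other organs, such as Cela1 (10.25).

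Genes of energy supply were among the brightest pathways. In the respiratory chain list all 27 measured genes passed the floor, and the ATP synthase subunit Atp5c1 led at 16.77, 16.68, 16.58 and 16.70, with Ndufb8 (16.20) and Ndufa1 (16.16) of complex I, Cox5b (16.004) of complex IV and cytochrome c, Cycs (15.57). Of glycolysis, Pgk1 was followed by the lactate dehydrogenase Ldha at 16.35 ± 0.13. Aldoa at 15.50 ± 0.08 and the lactate dehydrogenase Ldhb at 15.49 ± 0.09 came next. The hexokinases Hk1 and Hk2 were at 14.12 ± 0.20 and 12.90 ± 0.44. Hk2, an isoform known in photoreceptors, had 13.20, 12.43, 13.33 and 12.63, lowest in replicate 2. Bnip3 (16.30) and Hif1a (16.06) led the hypoxia-inducible list, Vegfa was at 12.64 ± 0.36, and Car9, a marker of hypoxic cells, was below the floor at 5.79.

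Genes of protein synthesis and upkeep were also bright. Rpl13a (16.48) and Rps3 (16.36) led the ribosomal proteins, Hsp90aa1 (16.29) and Hspa8 (16.14) the cytosolic chaperones, Psmd14 (16.33) the proteasome, and Hspa5, the chaperone of the endoplasmic reticulum, its stress list at 15.97 ± 0.14. All 23 measured proteasome genes passed the floor and 0 had a 2-fold range, against 16.8% of all genes past the floor. Over all genes that share was only 4.30% at means from 12 to 14 and 0.847% at 14 or above. The small heat shock protein Hspb1 was low at 9.97 ± 0.17. Of the stress factors of the reticulum, Atf4 was at 14.47 ± 0.10, Ddit3 at 10.75 ± 0.37 and Atf3 at 10.43 ± 0.19. Sterol synthesis ran from Hmgcs1, the third brightest of all genes, to Mvd at 8.27, just below the floor, and the sterol sensor Insig1 was at 12.91 ± 0.10.

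Ribbon synapse genes had a median of 13.28, and 1 of 23 had a 2-fold range. Over all genes past the floor 16.8% did, and 4.30% of those with means from 12 to 14. Synaptotagmin Syt1 had 16.02, 16.02, 16.02 and 15.98, Snap25 was at 15.48 ± 0.19, and Stx3, the syntaxin of ribbon synapses, was at 15.47 ± 0.31. The ribbon proteins Ctbp2, Pclo and Bsn were at 13.78 ± 0.10, 14.64 ± 0.12 and 10.85 ± 0.35, and complexins Cplx4 and Cplx3 at 14.19 ± 0.34 and 13.28 ± 0.47. The vesicular glutamate transporter Slc17a7, at 9.88 ± 0.26, and the calcium channel subunit Cacna1f, at 9.70 ± 0.18, were dimmer. The calcium channel subunit Cacna2d4, known from photoreceptor terminals, had the same 12.1 on every array to 1 decimal, with an SD of 0.02. Among receptors, the GABA receptor subunit Gabrb2 (14.21), Gabrb1 (13.92), the glycine receptor subunits Glra3 (14.17), Glra2 (13.95) and Glrb (13.92) and the glutamate receptor subunit Gria2 (13.57) were the highest, and Gabrr1 and Gabrr2, of the GABA receptor known in bipolar cells, were at 12.93 ± 0.25 and 10.69 ± 0.14.

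Clock and activity genes were mostly well above the floor. The clock output gene Dbp was at 16.30, 16.28, 15.52 and 15.90, Drd4, a dopamine receptor with a daily rhythm in photoreceptors, at 16.05, 15.53, 14.96 and 14.93, Clock at 14.71 ± 0.11, Arntl at 12.58 ± 0.19, Cry1 at 13.004 ± 0.21, and Per1, Per2 and Per3 at 10.57 ± 0.32, 10.51 ± 0.43 and 12.43 ± 0.22. Drd4 was highest in replicate 1 and Dbp was higher in replicates 1 and 2. The hour at which the retinas were taken is not given in the sources used here. Of the immediate early genes, Fos was at 15.63, 15.41, 15.88 and 15.89 and Egr1 at 15.00, 14.73, 15.07 and 15.05, both in the upper range of all genes, whereas Fosb (8.08), Junb (8.10) and Arc (6.30) lay below the floor. The glucocorticoid-responsive genes Klf9, Sgk1 and Nfkbia had means of 16.61, 16.05 and 15.94, while Fkbp5 had 11.05.

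Defence and injury genes spanned nearly the whole signal range. Of gliosis and acute-phase genes, ceruloplasmin Cp led at 15.28 ± 0.33, the cytokine receptor Osmr was at 14.25 ± 0.14, Socs3 at 13.39 ± 0.18 and Edn2 at 11.81 ± 0.21. Lif (8.53) lay near the floor. Interferon-response genes were led by Ifi35 at 13.70 ± 0.56 and Gbp3 at 13.46 ± 0.28, and the list had a median of 10.85. The class I light chain B2m was at 13.88 ± 0.34 and the class II chain H2-Aa had 10.76, 12.71, 9.43 and 9.74, highest in replicate 2. In the complement list, Cfi was at 13.40 ± 0.29 and the C1 inhibitor Serping1 at 12.64 ± 0.18, and 8 of 14 measured genes passed the floor. C2, a complement protease, had 11.59, 13.76, 11.04 and 10.76, highest in replicate 2. Metallothionein Mt1 was at 14.04 ± 0.33, the peroxidase Gpx1 at 14.75, 14.81, 13.98 and 13.95 and haem oxygenase Hmox1 below the floor at 6.59. Of apoptosis genes, the survival factors Mcl1 and Xiap led at 15.40 ± 0.04 and 14.61 ± 0.06. The proliferation markers Mki67 (8.59), Top2a (8.79) and Birc5 (6.09) were near or below the floor, while Pcna was at 14.91 ± 0.08.

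Retinoid genes joined retinal and pigment epithelial members. Rdh10, Rlbp1 and Abca4 (12.99 ± 0.06) were steady, and the retinoid carrier Rbp3 (12.54 ± 0.36) was less so. Rpe65, the retinol esterase Lrat at 10.92, 12.55, 9.91 and 10.64, the opsin-like Rgr at 11.89, 13.07, 11.08 and 11.26 and the dehydrogenase Rdh5 at 10.15, 11.21, 9.20 and 9.43 shared an order over arrays in which replicate 2 was highest and replicate 1 second. Ttr, the thyroxine and retinol transport protein known in pigment epithelium and ciliary body, was the brightest pigment epithelium gene at 16.59, 16.70, 16.01 and 15.95. Best1 (5.75) and Stra6 (5.30) were below the floor.

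Variation between arrays was greatest in dim genes and in a few groups. Of the 12821 genes past the floor, 2151 (16.8%) had a range of at least 2-fold. The share was 38.8% for genes with a mean from 8.43 to 10, 13.3% from 10 to 12, 4.30% from 12 to 14, and 0.847% (15 of 1771) at 14 or above. Over lists, 14 of 135 genes of retinal neurons (10.4%), 57 of 362 pathway genes (15.7%), 8 of 33 glial genes (24.2%) and 46 of 79 genes of adjacent tissues (58.2%) reached it. Without replicate 2 these shares were 9 of 135 (6.67%), 26 of 353 (7.37%), 3 of 32 (9.38%) and 25 of 76 (32.9%). Adjacent tissue genes were also dimmer, with a median signal of 9.04 against 12.55 for retinal neurons. Replicate 2 was the array farthest from the median of the 4 at 871 of the 2151 genes (40.5%), against 575 for replicate 3, 364 for replicate 4 and 341 for replicate 1. It was the high one at 566 genes, 4.41% of those past the floor. Without replicate 2, 1114 of 12773 genes (8.72%) had a 2-fold range over the 3 arrays, fewer also because 3 arrays span less than 4. Leaving out replicate 1, 3 or 4 in its place gave 1674, 1430 and 1583.

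**Figure D3:**
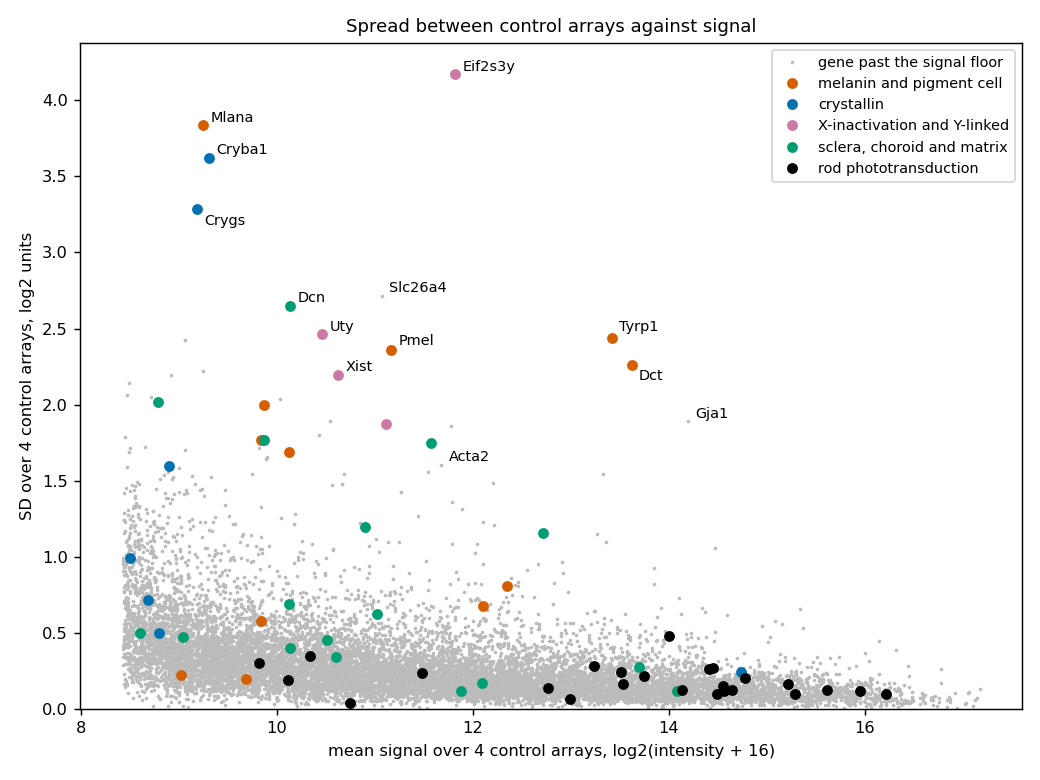
SD over the 4 control arrays, in log2 units, against mean signal for the 12821 genes past the floor, with 5 lists coloured. Rod genes lie low, while genes of the pigment cell, crystallin, matrix and X- or Y-linked lists are among the points of largest SD.

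The 30 genes of largest SD fell into a few patterns. Eif2s3y was first, and the Y-linked genes Uty, at 11.62, 6.78, 11.60 and 11.86, and Kdm5d, at 11.92, 8.31, 12.10 and 12.13, were among them with Xist. All 3 Y-linked genes were low in replicate 2 and close together on the other arrays. Without replicate 2, the median SD of these 3 and Xist was 0.19. The largest group was highest in replicate 2: 22 of the 30 were, and in 19 of these replicate 1 came second. It held the melanocyte genes Mlana, Tyrp1, Pmel, Dct, Tyr and Slc45a2, the matrix proteoglycans Dcn, Lum and Ogn with the collagen Col3a1, the smooth muscle myosin Myh11, the gap junction protein Gja1 at 15.48, 16.002, 11.93 and 13.39, the anion exchanger Slc26a4 at 12.52, 14.16, 8.50 and 9.12, Slc13a4 at 10.37, 11.73, 6.42 and 7.73 and the growth factor Bmp2 at 11.47, 12.77, 8.86 and 9.09. Gja1 was the brightest of the 30. The opposite order, highest in replicate 3 and lowest in replicate 2, was that of 4 of the 30: the lens genes Cryba1 and Crygs, Tcerg1l at 10.16, 5.95, 10.82 and 10.04 and Fbxw16 at 9.51, 5.80, 9.53 and 8.97. Gpr152, an orphan receptor, had 9.37, 9.57, 9.57 and 5.38, low in replicate 4 alone. Mean signal was below 10 for 15 of the 30, and 28 of the 30 were also found when the SD was taken relative to genes of like signal. Without replicate 2, 7 of the 30 remained among the 30 most varying genes, including Cryba1, Crygs, Slc26a4, Gja1, Dct and Tyrp1.

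**Figure D4:**
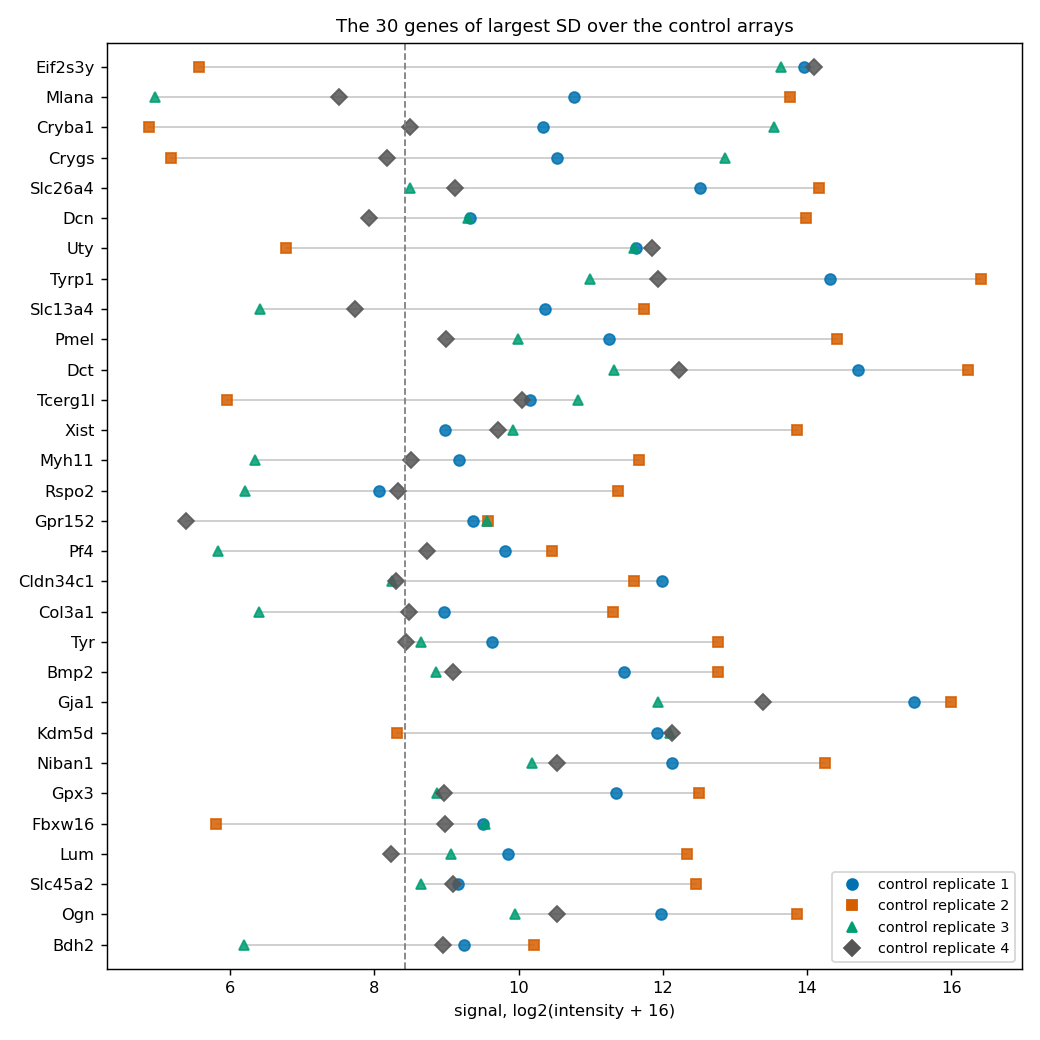
Signal, log2(intensity + 16), on each control array of the 30 genes of largest SD, in falling order of SD, with a dashed line at the floor of 8.43. Replicate 2 is the right-most point for 22 genes and the left-most for 7, among them Eif2s3y, Uty, Kdm5d, Cryba1 and Crygs.

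Many pigment cell genes varied in 1 order, which part of the pigment epithelium genes shared. Replicate 2 was highest and replicate 1 second for 8 of 12 pigment cell genes and 8 of 14 pigment epithelium genes past the floor, against 13.3% of all genes. Tyrosinase-related protein Tyrp1 had signals of 14.32, 16.41, 10.99 and 11.94, dopachrome tautomerase Dct had 14.71, 16.23, 11.32 and 12.22, and tyrosinase Tyr had 9.63, 12.76, 8.64 and 8.44. Pmel, the fibril protein of the pigment granule, had 11.26, 14.41, 9.99 and 8.99, and Mlana had 10.76, 13.76, 4.95 and 7.50. In each of these 5 genes replicate 2 was highest and replicate 1 second, and all 3 probe sets of Tyrp1 and of Tyr had their highest value in replicate 2. Of 12 measured pigment cell genes 10 had a 2-fold range and 10 were highest in replicate 2. The shares of all genes past the floor were 16.8% and 30.4%. The pigment cell list stood 0.19, 2.02, -1.21 and -0.99 from its own mean in replicates 1 to 4. Otx2, Rrh, Ezr and Mertk of the pigment epithelium list were not highest in replicate 2. That list had 7 of 14 genes with a 2-fold range and stood at 0.06, 0.80, -0.37 and -0.48. For the list of sclera, choroid and matrix, 11 of 17 genes had it and the values were 0.01, 1.08, -0.56 and -0.53, and for ciliary body and iris 6 of 11, at 0.04, 0.66, -0.32 and -0.38. These 4 lists share the order in which replicate 2 was highest and replicates 3 and 4 lowest. Kit and Sox10, also listed with pigment cells, were even across arrays at 9.68 ± 0.20 and 9.03 ± 0.22. Among the 3 arrays other than replicate 2, the pigment cell list still stood at 0.67, -0.34 and -0.33 in replicates 1, 3 and 4.

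Several crystallins, structural proteins of the lens, had another order. Cryba1 had signals of 10.34, 4.87, 13.54 and 8.49 and Crygs had 10.54, 5.18, 12.86 and 8.17, from below the floor in replicate 2 to well above it in replicate 3. Crygb was at 9.44, 6.90, 10.70 and 8.57 and Crybb2 at 9.16, 5.35, 10.76 and 6.64, with the same highest and lowest arrays. The mean of Crybb2, 7.98, was below the floor. Cryab, a small heat shock protein that retina also makes, was far brighter and nearly even at 14.69, 15.06, 14.70 and 14.48. Of 14 measured crystallins 7 passed the floor and 6 of these had a 2-fold range, against 16.8% of all genes past the floor. Over all genes with a mean from 8.43 to 10, where these 6 lay, the share was 38.8%. The list stood at 0.43, -1.67, 1.76 and -0.52 in replicates 1 to 4. Without replicate 3, the difference of replicate 2 from the others was -1.62 over the same 7 genes in place of -2.23. Over the 2 crystallins that still passed the floor then it was 0.55. The 8 measured lens genes that are not crystallins included 1 past the floor, and the lens membrane protein Mip was at 8.34, 6.25, 8.42 and 7.77. Whether lens RNA had a part in the crystallin values was not tested.

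The rod, cone, amacrine, ganglion cell and Müller glia lists moved little by the same measure, a mean in which opposite moves of single genes cancel. Among Müller glia genes, Slc6a11 was at 6.53 and Apoe at 12.85 in replicate 2, against gene means of 9.06 and 11.95. Rod genes stood at 0.07, -0.04, 0.00 and -0.03 in replicates 1 to 4, cone genes at -0.02, -0.06, 0.08 and 0.00, amacrine genes at 0.01, -0.02, -0.02 and 0.03, ganglion cell genes at -0.07, 0.01, 0.03 and 0.02, and Müller glia genes at 0.05, -0.01, -0.04 and 0.00. Horizontal cell genes stood at 0.15, -0.26, 0.14 and -0.03, with Onecut1 the lowest member in replicate 2. Astrocyte genes stood at 0.06, 0.69, -0.24 and -0.51, highest in replicate 2 through S100b, Gjb6 and the growth factor receptor Fgfr3 at 9.27, 10.37, 8.36 and 8.05. The difference of replicate 2 from the mean of the other arrays was -0.05 for rod genes, against 2.69 for pigment cell genes, 1.44 for matrix genes, 1.06 for pigment epithelium genes and -2.23 for crystallins. Microglia genes stood at -0.06, 0.36, -0.13 and -0.17, and antigen-presentation genes at 0.00, 0.58, -0.38 and -0.20, so that replicate 2 was highest in these lists too. The part of pigmented or connective tissue in these values was not tested.

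**Figure D5:**
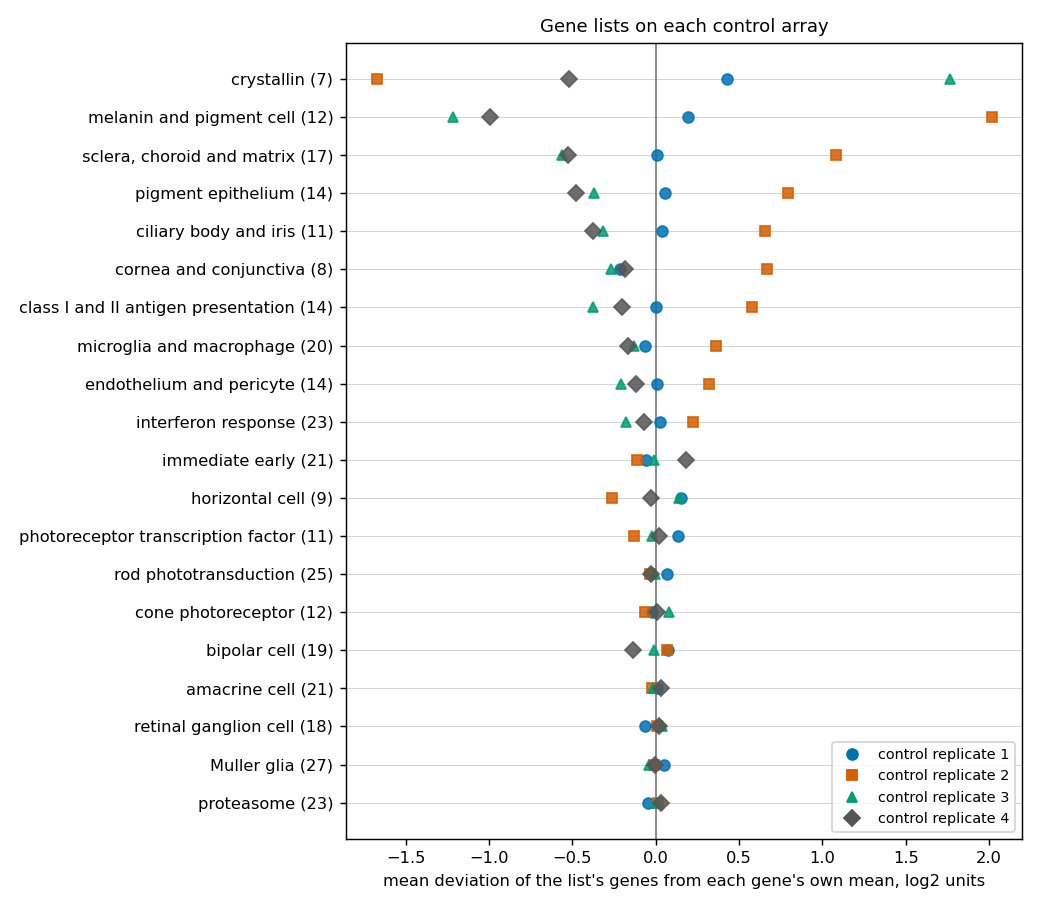
Mean deviation of each list's genes past the floor from the gene's own mean, in log2 units, on each control array, with the number of genes in parentheses. The 4 points of the rod, cone, amacrine, ganglion cell and Müller glia lists lie close to 0, while replicate 2 lies at 2.02 for pigment cell genes and at -1.67 for crystallins.

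Promoters of pigment cell and crystallin genes are shown for the same reason as those of rod genes. The counts cover all listed genes with an entry, not only those that varied together. Slc24a5 and Crygc were not measured, and Crybb1 and Crygn did not share the order of Cryba1 and Crygs. The motif TCATGTG, the form of the E-box that the pigment cell factor Mitf binds, was found on either strand in 4 of the 8 pigment cell genes with an entry (Tyr, Tyrp1, Dct and Slc24a5) and in 3.72% of all genes. It was in 0 of 16 pigment epithelium genes. The shorter CATGTG, which lies within it, was in 5 of 8 pigment cell genes and in 13.8% of all. Mitf itself was at 11.79, 13.11, 11.84 and 11.67, highest in replicate 2. For crystallins the motif TGCTGA, the core bound by large Maf proteins of the lens, was in 10 of the 15 genes with an entry (66.7%), in 5 of 16 pigment epithelium genes, in 4 of 21 rod genes and in 18.0% of all genes. In the sequences that follow, 5′ to 3′ with the motif in capitals, Tyr (chr7:87493513-87493762, minus strand) and Tyrp1 (chr4:80833963-80834212, plus strand) carry TCATGTG starting 22 and 47 bases before the gene start. Cryba1 (chr11:77725294-77725543, minus strand) carries TGCTGA starting 57 bases before it, and Crygs (chr16:22811411-22811660, minus strand) carries it on the opposite strand, as TCAGCA, starting 200 bases before it.
Tyr: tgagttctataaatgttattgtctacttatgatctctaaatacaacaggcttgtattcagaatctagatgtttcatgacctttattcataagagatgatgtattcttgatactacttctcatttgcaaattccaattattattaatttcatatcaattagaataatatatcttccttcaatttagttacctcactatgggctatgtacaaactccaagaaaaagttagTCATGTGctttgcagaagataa
Tyrp1: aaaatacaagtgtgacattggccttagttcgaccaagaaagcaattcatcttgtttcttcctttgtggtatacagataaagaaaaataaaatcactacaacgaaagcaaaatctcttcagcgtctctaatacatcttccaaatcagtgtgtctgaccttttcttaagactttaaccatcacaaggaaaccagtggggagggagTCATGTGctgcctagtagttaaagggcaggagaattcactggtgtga
Cryba1: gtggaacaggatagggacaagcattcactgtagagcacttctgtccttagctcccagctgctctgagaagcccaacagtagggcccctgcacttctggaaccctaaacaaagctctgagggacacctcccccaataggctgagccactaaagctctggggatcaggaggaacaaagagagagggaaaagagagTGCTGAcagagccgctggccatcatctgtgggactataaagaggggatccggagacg
Crygs: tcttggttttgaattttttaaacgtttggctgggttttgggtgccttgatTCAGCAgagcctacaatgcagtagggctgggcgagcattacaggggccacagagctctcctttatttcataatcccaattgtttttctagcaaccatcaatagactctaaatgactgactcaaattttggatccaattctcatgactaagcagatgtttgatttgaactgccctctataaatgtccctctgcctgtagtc

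A further pattern split replicates 1 and 2 from replicates 3 and 4. At 202 of the 2151 genes with a 2-fold range the widest gap put replicates 1 and 2 together above the others, and at 65 genes it put them together below. Some bright genes had the split. The ribosomal protein Rplp0 had 13.07, 13.42, 11.90 and 12.11, and Rpsa had 14.80, 15.01, 13.76 and 13.78. The cytochrome c oxidase subunit Cox4i1 had 15.92, 15.90, 14.77 and 14.77. The chaperone Hspa8 had 16.53, 16.51, 15.71 and 15.81, a range of less than 2-fold. The split was not general in the lists of these genes. The chaperone Dnaja1 had the opposite one, at 15.77, 15.80, 16.20 and 16.41, and the ribosomal proteins Rps18 and Rpl4 had none. Calreticulin Calr was at 13.36, 13.46, 12.10 and 12.36 and the glutathione peroxidase Gpx4 at 13.79, 14.03, 13.12 and 12.95. The ratio of 3′ to 5′ signal of Actb given above divides the arrays in the same way, lower in replicates 1 and 2. The same ratio for the array's other control gene of this kind, at 3.64, 3.95, 3.36 and 4.68, does not, and the part of either in these values was not tested.

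The steadiest genes past the floor were Ppp2r5c, a regulatory subunit of protein phosphatase 2A, with signals of 14.60, 14.61, 14.61 and 14.60 and an SD of 0.004, Nhlrc1 with an SD of 0.005, Trappc8, Hint1, Cdk17, Cct4, Creb3, Atp5j, Prkcz and Tasor2, all with an SD of 0.0125 or less. With the deposited scaling in place of quantile normalisation, the SD of these 10 genes ran from 0.0139 for Ppp2r5c to 0.113 for Hint1, against a median of 0.228 over all genes. Among commonly used reference genes, Pgk1 had an SD of 0.02, Eef1a1 0.05, Ywhaz 0.08, Actb 0.11, Hprt 0.13 and B2m 0.34.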

How the data were processed

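Total RNA of fresh mouse retina had been hybridised to Affymetrix expression arrays, 1 per sample. What the authors deposited is a linear intensity for every probe set on each array. The mean of a control array without the outer 2% at either end was 2500 on all 4, so a global scaling is likely; its software is not given in the sources used here. Scaling fixes each array's mean level, so total RNA per retina cannot be seen.

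Of 45101 probe sets, 64 array controls were set aside. By the platform annotation 34945 others carried a single symbol, and these alone were named; 932 carried several and 9160 carried no symbol. Entrez identifiers matched 34741 of them to RefSeq genes of GRCm38.p6, and 0 symbols changed. Intensities were quantile-normalised over the 4 control arrays and transformed as log2(intensity + 16), which understates the change of dim genes. A gene's value is that of its brightest probe set by mean. The floor was the 40th percentile of probe-set means. No detection calls entered. The x_at and s_at probe sets, such as those of Xist, Gfap and Acta2, may also detect similar transcripts, and crystallins hold close copies.

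No test between groups was run, since there is 1 group. Dixon's critical value served only as a flag. Members and lists were chosen with earlier results of these data known. Named genes were those marked in the lists, the 25 brightest, the 30 of largest and the 10 of smallest SD past the floor, and the brightest and most varying gene of each list; further list members were named after their values were seen. List values by array are means, over genes past the floor, of the deviation from the gene's own mean. The steps were tested on simulated arrays. Alternatives were other scalings, pseudocounts of 1 and 64, no floor, other probe set rules and leaving out each array. Python 3.11.15 with numpy 2.4.6, pandas 2.3.3, scipy 1.17.1 and matplotlib 3.10.9 was used.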

Additional observations from a re-analysis of the deposited data

Results flagged for a closer look

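Values in which 1 of the 4 control arrays lay far from the other 3 are given here, by the gap from that array to its nearest neighbour as a share of the range over arrays. A share above Dixon's critical value for 4 samples drew attention. Of 43 lists with at least 5 genes past the floor 1 had such a gap, and of 265 named genes past the floor 23 did (8.68%). Chance alone gives about 1 in 20, and the named genes include those chosen for a large SD.

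The list was that of cornea and conjunctiva genes, with a share of 0.909. Replicate 2 was its high array, at 0.67 against -0.21, -0.27 and -0.18 in replicates 1, 3 and 4.

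Replicate 2 was the distant array for 13 of the 23 genes. It was low for Eif2s3y (0.947), Uty (0.949), Kdm5d (0.946), Slc6a11 (0.872), Tcerg1l (0.84) and Fbxw16 (0.851). It was high for the smooth muscle actin Acta2 (0.896), the pigment cell transporter Slc45a2 (0.863), lysozyme Lyz2 (0.839), cathepsin Ctss (0.887), the clock gene Per1 (0.85), Casp9 (0.887) and Tsc22d1 (0.832). Sizes differed widely: Eif2s3y was at 13.96, 5.57, 13.64 and 14.10 and Acta2 at 11.03, 14.08, 10.68 and 10.94, whereas Ctss and Tsc22d1 had an SD of 0.10 and 0.04.

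Replicate 1 was the distant array for 3 genes: low for the apoptosis gene Bad (0.869) at 9.89, 11.25, 11.35 and 11.16 and for Ndufs1 (0.863), and high for Cct4 (0.888). Replicate 3 was distant for 3: low for Hint1 (1.0), high for the immunoglobulin joining chain Jchain (0.875) at 10.76, 10.76, 11.54 and 10.65 and for Tasor2 (0.964). Replicate 4 was distant for 4: low for Gpr152 (0.951), for the survival factor Bcl2 (0.935) at 11.42, 11.40, 11.47 and 10.37, for Sftpc (0.898) and for Syt1 (0.928). Cct4, Hint1, Tasor2 and Syt1 had an SD of 0.02 log2 units or less, so their gap is small in size.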

How the results depend on the processing

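The count of 2151 genes with a 2-fold range stayed within 1.5 times under the other scalings, pseudocounts and probe set rules. With no floor it was 6622. Leaving out 1 array gave 1114 to 1674, lowest without replicate 2. Replicate 2 was the distant array at 36.5% of such genes with median centring and at 32.6% with no floor, against 40.5%. Of the 30 most varying genes, 18 were shared with no floor, 19 when a gene was read as the median of its probe sets, and 7 to 26 when 1 array was left out, fewest without replicate 2. The 10 highest lists shared 8 to 10 members with every alternative.

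Pigment cell, pigment epithelium and matrix lists kept replicate 2 high in every alternative that held it. The crystallin difference of -2.23 turned to 0.55 without replicate 3, where 2 crystallins in place of 7 passed the floor; over the same 7 genes, an alternative chosen after seeing the data, it was -1.62. It ran from -2.47 to 0.55 over the arrays left out. Reading a gene as the median of its probe sets moved 139 named genes and 36 of 47 list medians by more than their SD, and leaving out x_at and s_at probe sets moved 37 and 17. Signals near the floor of 8.43 lie at the level of genes of other organs. The order given among the lowest lists is therefore not read as one of expression, and no order of genes is read below the floor. No paired analysis was possible because there is 1 group and no test between groups.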

Other observations

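Without replicate 2, the 30 genes that varied most between the 3 remaining arrays were largely other genes. A total of 23 were not among the 30 found with all arrays, and all 23 had a mean signal below 10. The brighter of the 30 were the lens crystallins Cryba1 and Crygs, the anion exchanger Slc26a4, the gap junction protein Gja1 and the pigment cell enzymes Dct and Tyrp1. Crybb2, also a lens crystallin, joined them with 9.16, 10.77 and 6.61 in replicates 1, 3 and 4. Cldn34c1, a claudin, had 11.99, 8.23 and 8.28 there, and 11.99, 11.60, 8.25 and 8.30 when all 4 arrays were normalised together. Replicate 1 was the highest of the 3 for Cldn34c1, Slc26a4, Dct, Tyrp1 and Gja1.

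Some genes named for a single cell type went against their list in steadiness. Among ON bipolar genes Trpm1 varied in the order of the pigment cell genes, with a range of 3.33 log2 units. Gpr179 and Rgs11 had the same order with ranges of only 0.44 and 0.71, and Nyx was highest in replicate 3. Among glia, Apoe (12.33, 12.85, 10.95 and 11.69), the transcription regulator Id3 (10.98, 11.98, 9.76 and 10.63) and the Notch target Hes1 (10.14, 11.05, 10.01 and 10.26) were highest in replicate 2, whereas the Notch target Hes5 (11.63, 11.48, 11.55 and 11.29) was even. The prostaglandin synthase Ptgds had 14.98, 15.71, 13.48 and 13.72 and the bicarbonate transporter Slc4a4 had 11.93, 13.72, 10.77 and 11.15, both listed for ciliary body and iris and both in the order of the pigment cell genes, while Tgfb2 (15.15, 15.04, 15.24 and 15.16) of the same list was even. In the corneal list, Perp, a desmosome protein, was at 10.53, 12.77, 10.55 and 10.67, high in replicate 2 only, while the transketolase Tkt was even at 16.14, 16.04, 15.98 and 15.998.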
